A study of Mus musculus with 12 samples.

Results

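A small population of cells carrying T cell receptor transcripts was present among the CD11c-selected cells of spontaneous mouse breast tumors. Cells were taken into this population from their raw counts of unique molecular identifiers (UMIs, each marking 1 captured transcript), as cells with at least 200 detected genes, at least 1 UMI of *Cd3e*, at least 1 UMI of *Trbc2*, no UMI of *Csf1r*, and at most 1 UMI of *C1qa*. The gate held 50 of 11639 CD11c-selected cells, or 0.430% (95% exact Clopper-Pearson interval 0.319–0.566), and both matrices together held 34445 cells. The same gate held 15464 of 22806 CD4/CD8-selected cells, or 67.8%, and these served as the comparison. Since *Cd3e*, *Trbc2*, *Csf1r*, and *C1qa* chose the cells, their levels are a description of the gate and not a result.

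CD11c is the integrin alpha X chain, encoded by *Itgax*, which pairs with the beta 2 chain and is used to isolate dendritic cells and macrophages from tissue. It is also known on some activated and tissue T cells, on natural killer (NK) cells, and on T cells of epithelia. Most T cells recognize peptide on major histocompatibility complex (MHC) molecules through an alpha beta receptor and carry CD4 or CD8, whereas gamma delta T cells use a receptor of other chains and mostly lack both co-receptors.

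The tumors came from PyMT mice, in which the polyoma virus middle T oncogene is driven in the mammary gland by the MMTV promoter, without further treatment. The CD11c-selected matrix pooled 6 samples, 3 from PyMT-PAR2 WT mice and 3 from PyMT-PAR2 G37I mice, whose protease-activated receptor 2 is resistant to cleavage by coagulation factor Xa, and the CD4/CD8-selected matrix pooled 3 and 3 samples of the same genotypes. Cells were enriched with magnetic beads, frozen, thawed, and run on the 10x Genomics platform. The CD11c-selected cells came from late-stage tumors and the CD4/CD8-selected cells from mid-size tumors, so selection and tumor stage cannot be told apart in any value below. Cells could not be assigned to samples, and therefore genotypes were not compared and each matrix counted as 1 sample, without a test between them. All intervals are 95% intervals and cover counting error only.

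The barcodes of each matrix formed 6 alphabetical stretches, called barcode runs here, which were not linked to samples. UMIs per run ranged from 13314063 to 24231244 in CD11c-selected cells and from 16203038 to 30168668 in CD4/CD8-selected cells. The gated CD11c-selected cells lay unevenly over the runs, with 13 of 1561 cells in run 1, 24 of 2784 in run 2, 8 of 2024 in run 3, 0 of 360 in run 4 (which allows a share of up to 0.833%), 2 of 2607 in run 5, and 3 of 2303 in run 6. Of the barcodes, 76 of the CD11c-selected matrix and 51 of the CD4/CD8-selected matrix occurred in more than 1 run. None of the 50 gated CD11c-selected cells had such a barcode, and 72 gated CD4/CD8-selected cells did. Depth was close between the gated populations, with a median of 4972.5 UMIs per cell (578 to 32699) in CD11c-selected and 4753 in CD4/CD8-selected cells.

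T cell genes that the gate did not use were present in most of these cells. *Cd3g* was detected in 48 and *Cd3d* in 44 of the 50, and both CD3 subunits were found together in 43. Among the 11589 CD11c-selected cells outside the gate, 0.302% had a UMI of *Cd3g*. The T cell label therefore held on genes independent of the gate for most, though not for all, of its members. At the edge of the gate, 6 members had exactly 1 UMI each of *Cd3e* and *Trbc2*, and 17 had 1 UMI of *Cd3e*. Just outside it were 5 cells with both T cell genes but too many macrophage transcripts, with *C1qa* at 29, 8, 2, 2, and 16 UMIs and *Csf1r* at 4, 0, 0, 0, and 8 UMIs. A further 13 CD11c-selected cells had both *Cd3d* and *Cd3g* without passing the gate, of which 9 lacked *Cd3e* and 5 lacked *Trbc2*.

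Of the 50 barcodes, 3 held large amounts of dendritic cell transcripts beside T cell transcripts. Myeloid content was measured as the share of a cell's UMIs from 19 myeloid genes. It was 5.48%, 5.03%, and 4.96% in these 3 cells, 1.66% and 0.527% in a further 2, and at most 0.297% in the other 45. In the gated CD4/CD8-selected cells, 51 of 15464 (0.330%) reached 0.5%, against 5 of 50 (10%) here. The 3 barcodes held 21.8% of all UMIs of the population, but 94.0% of its *Cd74* (the MHC class II invariant chain), 90.9% of its *H2-Ab1*, 96.1% of its *Cst3*, and 100% of its *Ccl22*, *Il12b*, *Cd209a*, and *Fscn1* UMIs.

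**Figure D1:**
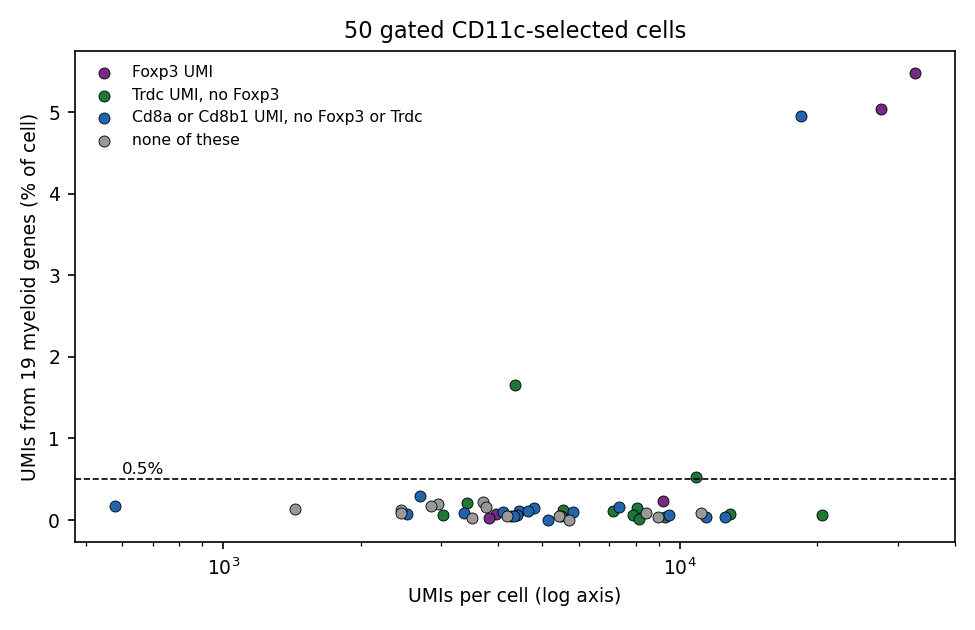
Each point is 1 gated CD11c-selected cell, with UMIs per cell on a logarithmic horizontal axis and the percentage of its UMIs from 19 myeloid genes on the vertical axis, and the line marks the 0.5% limit. The 3 cells near 5% stand apart from the 45 cells that lie at or under 0.297%.

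The deepest of them had 32699 UMIs, with 109 UMIs of *Ccl22* (a chemokine of mature dendritic cells), 34 of *Il12b* (the p40 chain of interleukin-12), and 480 of *Cd74*, together with 15 of *Trac*, 3 of *Foxp3*, and 8 of *Il2ra*. The next had 27537 UMIs, with 94 of *Ccl22*, 29 of *Il12b*, and 369 of *Cd74*, together with 20 of *Trac*, 6 of *Foxp3*, and 15 of *Il2ra*. Both were thus barcodes in which the genes of migratory dendritic cells and of regulatory T cells occurred side by side, and both lay in barcode run 1. The third, also of run 1, had 18384 UMIs, with 226 of *Cd74*, 268 of *Cst3*, and 1 of *Cd8a*. Doublets had not been removed, and whether these barcodes held 1 or 2 cells was not tested. Values are therefore given for all 50 cells and, where the myeloid limit changed a call or a size, for the 45 cells under 0.5% myeloid UMIs, which held 267070 UMIs and a median of 4660 per cell.

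In the 45 cells the summed level of the 6 migratory dendritic cell markers was 0 CPM (the UMIs of a gene summed over cells per 1000000 UMIs of those cells), against 912 CPM in all 50. The 6 MHC class II genes summed to 389 CPM in the 45 cells and 7385 CPM in all 50. The 6 neutrophil markers were at 0 in all 50 cells, and the 6 fibroblast, endothelial, and mast cell markers summed to 8.31, 19.4, and 22.2 CPM. Of the 6 NK cell markers 5 were detected and summed to 177 CPM, against 107 CPM in gated CD4/CD8-selected cells. *Ncr1*, the NKp46 receptor gene, had 4 UMIs in 2 cells. Of the other lists, 9 of 10 macrophage markers were detected at 319 CPM in sum, 1 of 6 B cell markers at 103 CPM, 2 of 6 plasmacytoid dendritic cell markers at 186 CPM, 5 of 6 monocyte markers at 721 CPM, 5 of 6 cDC1 markers at 477 CPM, 6 of 6 cDC2 markers at 302 CPM, and 4 of 6 tumor or epithelial markers at 105 CPM.

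*Itgax*, the gene of the antigen used for selection (chr7:128129547-128150657, plus strand, GRCm38), was higher in the gated CD11c-selected cells than in the gated CD4/CD8-selected cells. It had 35 UMIs in 17 of the 50 cells, with 1 to 4 UMIs per positive cell and a median of 2. Its level was 97.0 CPM (67.6–135) against 8.40 CPM, a ratio of 11.6 (7.99–16.2), and the ratio was 11.5 in the cells under 0.5% myeloid UMIs. Leaving out the cell with most *Itgax* UMIs gave 10.6, and leaving out each barcode run in turn gave 9.50 to 13.4. By run, the level was 91.7, 126, 68.9, and 96.9 CPM in runs 1, 2, 3, and 5 and 0 in the 3 cells of run 6, whereas the 6 runs of CD4/CD8-selected cells lay between 4.05 and 11.9 CPM. Run 5 held 10319 UMIs with 1 of *Itgax*, and run 6 held 15544 UMIs. Neither run could show a level above 0 as low as those of the CD4/CD8-selected runs. Macrophages of the same matrix (6517 cells) had 244 CPM and tumor epithelial cells (269 cells), which should lack the gene, had 3.39 CPM.

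The share of cells with an *Itgax* UMI depended on depth. It was 34% in gated CD11c-selected cells, 3.93% in gated CD4/CD8-selected cells, and 2.97% in epithelial cells, whose median depth was 13805 UMIs. After each cell was thinned to 1000 UMIs, which kept 49 of the 50, the share was 18.4% (8.76–32.0), against 0.669% in CD4/CD8-selected cells, 0.429% in epithelial cells, and 19.8% in macrophages. Among the 19 gated CD11c-selected cells with at least 6000 UMIs, 13 had an *Itgax* UMI (68.4%, 43.4–87.4), against 344 of 5022 (6.85%) in CD4/CD8-selected cells of that depth. A cell without an *Itgax* UMI was therefore not shown to lack the transcript at the depth of most of these cells. CD11c protein was not measured in these files.

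Each gated cell was placed in the first category that it met among *Foxp3* (regulatory T cells), *Trdc* (the delta chain constant gene), and *Cd8a* or *Cd8b1* (the CD8 co-receptor chains), and otherwise in a category without these genes. Gated CD11c-selected cells were 5 *Foxp3* cells (10%, 3.33–21.8), 13 *Trdc* cells (26%, 14.6–40.3), 18 *Cd8* cells (36%, 22.9–50.8), and 14 cells without any of these genes (28%, 16.2–42.5). Gated CD4/CD8-selected cells were 0.951% *Foxp3*, 3.05% *Trdc*, 88.6% *Cd8*, and 7.40% without these genes. No category thus held most of the population caught with CD11c beads, whereas the comparison was mostly *Cd8* cells, a composition that bead selection for CD4 and CD8 can set. The last category is set by undetected genes and need not be 1 kind of cell. Under 0.5% myeloid UMIs the shares were 6.67%, 24.4%, 37.8%, and 31.1%. *Cd4* had 7 UMIs in 4 cells, and 2 of the 7 remained in the cells under 0.5% myeloid UMIs.

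**Figure D2:**
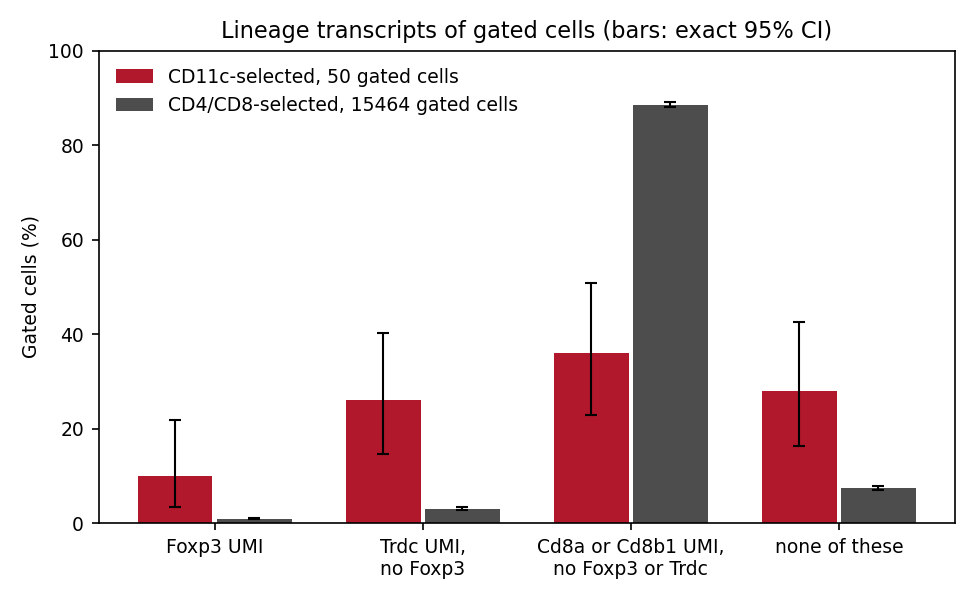
Percentage of gated cells in each of 4 categories set by detected lineage genes, for CD11c-selected and CD4/CD8-selected cells, with exact 95% intervals. *Trdc* cells make up 26% of the first and 3.05% of the second population, and *Cd8* cells 36% and 88.6%.

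The shares rested on few runs. Of the 13 *Trdc* cells, 2, 7, and 4 lay in runs 1, 2, and 3, and leaving out each run in turn gave shares of 21.4 to 29.7%. In CD4/CD8-selected cells, 367 of the 471 *Trdc* cells lay in run 2 of that matrix, and the share was 0.769% without it. Of the 5 *Foxp3* cells 4 lay in run 1, without which their share was 2.70%. Thinned to 1000 UMIs, 18.4% of gated CD11c-selected cells had a *Trdc* UMI against 0.898%, 18.4% had *Cd8b1* against 46.9%, and 2.04% had *Foxp3* against 0.334%.

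The 13 *Trdc* cells of the CD11c-selected matrix carried transcripts of the gamma delta receptor and little of the alpha chain. The *Trdc* gene (chr14:54142851-54148868, plus strand) lies within the alpha chain locus and is deleted from an allele on which an alpha chain is assembled. These cells had 1 to 16 *Trdc* UMIs with a median of 6, and 4 of the 13 had a UMI of *Trac*, the alpha chain constant gene (30.8%, 9.09–61.4), each of them a single UMI. The 471 *Trdc* cells among CD4/CD8-selected cells had a median of 1 *Trdc* UMI, and 450 of them had *Trac* (95.5%, 93.3–97.2). *Cd8a* and *Cd8b1* were at 0 in all 13, which allows a share of up to 23.1%, whereas 97.0% of the CD4/CD8-selected *Trdc* cells had one or the other. The cells called by a *Trdc* UMI therefore differed between the matrices in their other receptor genes.

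Of the gamma chain constant genes, *Tcrg-C1* was detected in 7, *Tcrg-C2* in 8, and *Tcrg-C4* in 7 of the 13 cells. Levels of *Tcrg-C1* and *Tcrg-C2* were 10.9 and 12.5 times those in CD4/CD8-selected *Trdc* cells, but 3.39 and 4.33 times without run 2 of that matrix. *Tcrg-C4* was at 1.47 (0.847–2.39), within counting error, and at 6.82 (3.30–14.0) without that run. *Tcrg-C1* and *Tcrg-C2* are close copies, and reads may have been split between them. Gamma chain genes were also present in CD4/CD8-selected *Cd8* cells, with *Tcrg-C2* detected in 35.4% of them. *Tcrg-C1*, *Tcrg-C2*, and *Tcrg-C4* were at 18.8, 141, and 57.5 CPM there, against 143, 285, and 162 CPM in the 13 cells. The *Tcrg-C2* ratio thus rested on a low level of 22.8 CPM in CD4/CD8-selected *Trdc* cells. A gamma chain UMI alone did not separate *Trdc* from *Cd8* cells. Among variable segments, chosen after their values were seen, *Trgv2* was detected in 11.95% of the CD4/CD8-selected *Cd8* cells. In the 13 *Trdc* cells *Trgv2* had 6 UMIs in 5 cells, and *Tcrg-V1* and *Trdv1* had 1 UMI each. The other gamma segments and the other *Trdv* segments had 0, so little of the delta variable chain was seen. *Il17a*, a cytokine of some gamma delta T cells, had 0 UMIs. Of the NK cell markers, 3 of the 4 counted were 2-fold or more higher than in CD4/CD8-selected *Trdc* cells (median log2 ratio 4.63), against 19.6% of all genes. Among them, *Klrb1b* had 7 UMIs against 0, and *Klrb1c* 9 against 9, at 85.5 and 2.74 CPM. Both passed the minimum of 20 CPM on the CD11c-selected cells alone, which fixed their direction, so this count is only a description.

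Of the 4 categories, *Trdc* cells had the highest levels of *Itgax*, *Itgae*, *Itga1*, and *Fcer1g*. *Itgax* was detected in 8 of 13 with up to 4 UMIs, at 171 CPM against 7.30 CPM in CD4/CD8-selected *Trdc* cells, a ratio of 23.4 (12.0–45.0). *Itgae*, the alpha chain of CD103 that binds E-cadherin on epithelium, was detected in 10 of 13 with up to 11 UMIs, at 494 CPM against 124 CPM, a ratio of 3.999 (2.94–5.35). *Itga1*, the CD49a chain that binds collagen, was detected in 8 of 13 at 276 CPM against 39.0 CPM, a ratio of 7.07 (4.56–10.7). All 3 integrin chains were higher by more than their counting error.

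*Fcer1g*, which encodes the FcR gamma chain that signals for Fc and NK receptors, was detected in 12 of the 13 *Trdc* cells, with a median of 7 and up to 63 UMIs. Its level was 1758 CPM against 71.5 CPM, a ratio of 24.6 (20.2–29.9). *Cd7* was detected in 11 at a ratio of 6.74 (5.48–8.22) and *Xcl1*, the chemokine that attracts XCR1-positive dendritic cells, in 11 at a ratio of 3.56 (2.95–4.26). *Gzmb*, the cytotoxic protease granzyme B, was detected in 8 at a ratio of 5.94 (4.86–7.22), with 75 of its 122 UMIs in 1 cell. *Gzma* and *Pdcd1* were lower, at ratios of 0.0478 and 0.142. These cells thus combined high integrin and innate receptor transcripts with little of the PD-1 gene.

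*Itgax*, *Itgae*, *Fcer1g*, *Cd7*, and *Xcl1* were higher in each of the other sets of *Trdc* cells compared, though all but *Cd7* moved by over 1.5 times between sets. With the 2 *Trdc* cells over 0.5% myeloid UMIs left out, *Itgax* was at 27.4 and *Fcer1g* at 30.2 times the CD4/CD8-selected level, and without CD4/CD8-selected run 2, which held most *Trdc* cells, at 13.0 and 20.3. *Itgae* was at 6.83 and *Xcl1* at 2.11 without that run. In that set, however, *Gzma* was at 0.328 (0.0386–1.26) and *Pdcd1* at 0.634 (0.198–1.57), so neither differed beyond counting error there. Against the 14 CD4/CD8-selected *Trdc* cells without a *Cd8a* or *Cd8b1* UMI, *Fcer1g* was at 4.92 (3.25–7.73) and *Itgax* at 12.4 (1.97–519). The *Itgax* value rested on 1 UMI in those 14 cells. *Trac* was detected in 12 of those 14 cells, and in 90 of the 104 cells (86.5%) left without run 2. Neither set was thus like the 13 CD11c-selected *Trdc* cells in its receptor genes. Among all genes with a mean of at least 20 CPM over both groups of *Trdc* cells, 1043 of 5334 (19.6%) were 2-fold or more higher and 274 (5.14%) lower in the CD11c-selected cells. At that minimum the 13 cells held 2.10 UMIs of a gene, so many such genes rested on a few UMIs.

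The 18 *Cd8* cells were chosen by a UMI of *Cd8a* or *Cd8b1*, and all 18 had *Cd8a*, so the levels of these 2 genes in them are a description that the choice in part sets. *Cd8a* had 1 to 20 UMIs with a median of 3, at 744 CPM against 607 CPM, a ratio of 1.23 (0.977–1.52). *Cd8b1*, the beta chain, was detected in 15 of the 18 with up to 13 UMIs, at 368 CPM against 764 CPM, a ratio of 0.481 (0.345–0.653). In the 17 cells under the myeloid limit *Cd8a* was at 1.45 (1.15–1.80) and *Cd8b1* at 0.576 (0.413–0.782). The beta chain was thus lower in both sets, whereas the alpha chain was beyond counting error in the second only. *Trac* was at 0.740 (0.553–0.971) in all 18 cells and at 0.867 (0.646–1.14), within counting error, in the 17.

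In the same *Cd8* cells *Itgax* was detected in 5 of 18, at 71.7 CPM against 8.90 CPM, a ratio of 8.06 (3.47–16.0). *Itgae* was at 3.28 (2.14–4.82) and *Itga1* at 3.14 (1.92–4.85) times the comparison. *Fcer1g* was at 12.5 (9.68–16.0), with its 66 UMIs in 5 cells, of which 28 lay in the barcode with 4.96% myeloid UMIs. *Xcl1* was at 4.25 (3.57–5.02), *Gzmb* at 2.46 (2.00–2.99), and *Pdcd1* at 0.532 (0.297–0.877). In the 17 cells under the myeloid limit *Itgax* was at 7.35 (2.69–16.1), *Fcer1g* at 8.85 (6.25–12.2), *Xcl1* at 4.63 (3.85–5.51), and *Gzmb* at 2.94 (2.39–3.57), and *Pdcd1* was at 0.635 (0.355–1.05), no longer beyond counting error. The directions of *Itgax*, *Itgae*, *Fcer1g*, and *Xcl1* in *Cd8* cells were thus those found in *Trdc* cells. *Gzmb* was also higher in sum, but 46 and 33 of its 100 UMIs lay in 1 cell each, so its direction rested on few cells. Over all genes, 1159 of 5297 (21.9%) were 2-fold or more higher and 147 (2.78%) lower in the CD11c-selected *Cd8* cells, where the minimum of 20 CPM was 2.23 UMIs.

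The 5 *Foxp3* cells had 2 to 6 UMIs of *Foxp3* (X:7573644-7595245, plus strand), the transcription factor that defines regulatory T cells. *Trac* was detected in 5 of 5, *Il2ra*, the alpha chain of the interleukin-2 receptor, in 4, and *Ikzf2*, the Helios gene, in 4. *Tnfrsf4*, the costimulatory receptor OX40, was detected in 5 of 5 with 1 to 67 UMIs. The comparison with the 147 *Foxp3* cells of the other matrix changed with the 2 barcodes that held migratory dendritic cell transcripts and most of the 77188 UMIs of the 5 cells. In all 5 cells *Ikzf2* was at 0.988 (0.782–1.23), *Tnfrsf4* at 1.14 (0.955–1.36), and *Il2ra* at 1.65 (1.18–2.24). In the 3 cells under the myeloid limit, which held 16952 UMIs, they were at 2.64 (1.94–3.50), 2.82 (2.21–3.55), and 3.67 (2.27–5.62), with 67 of the 75 *Tnfrsf4* and 20 of the 22 *Il2ra* UMIs in 1 cell each. *Klrg1*, a lectin receptor of differentiated T cells and NK cells, was detected in 5 of 5 with 3 to 10 UMIs and in 38.8% of the comparison, a ratio of 2.62 (1.74–3.82), and of 5.98 (3.35–9.97) in the 3 cells under the limit. *Fcer1g* and *Itgax* were detected in the same 2 of the 5 cells, those with migratory dendritic cell transcripts, and in 0 of the 3 others.

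In the 14 cells without *Foxp3*, *Trdc*, *Cd8a*, or *Cd8b1*, *Trac* was detected in 10 and *Fcer1g* in 7. *Fcer1g* was at 703 CPM against 15.5 CPM in the corresponding CD4/CD8-selected cells, a ratio of 45.5 (30.8–66.6). *Cd7* was at 13.4 (8.89–19.7), *Xcl1* at 6.71 (5.21–8.55), and *Pdcd1* at 0.129 (0.00327–0.724). With a median of 3735 UMIs per cell, the 14 cells were the shallowest of the 4 categories, and a lineage gene can go undetected at that depth.

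Over all gated cells, 602 of 5365 genes (11.2%) with a mean of at least 20 CPM were 2-fold or more higher in CD11c-selected cells and 94 (1.75%) were 2-fold or more lower, after 1 UMI was added to each sum. The median log2 ratio of all counted genes was 0.22. In the cells under 0.5% myeloid UMIs, 605 of 5317 (11.4%) were higher and 88 (1.66%) lower. These counts describe 2 pools of cells, and a level of 20 CPM corresponded to 7.22 UMIs in the 50 cells. A gene near 0 in the comparison could pass this minimum on the UMIs of the 50 cells alone, and was then called higher. Counting error in the smaller pool could thus add to the higher counts, here and in *Trdc* and *Cd8* cells, and its size was not tested.

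Before the myeloid limit the 10 genes with the highest ratios were *Ccl22*, *Tnfsf15*, *Cd209a*, *Il12b*, *Wdfy4*, *Zmynd15*, *Plbd1*, *Cxcl9*, *Cd40*, and *H2-Eb1*, each with 82.4 to 100% of its UMIs in the 3 barcodes with dendritic cell transcripts. Under the limit they were *Gzmc*, *Sulf2*, *H2-Ab1*, *Trdc*, *Hhex*, *Fcer1g*, *H2-Aa*, *Tyrobp*, *Nrgn*, and *H2-Eb1*, so that 1 gene was shared. Of these, *H2-Ab1*, *H2-Aa*, and *H2-Eb1* are MHC class II genes, whose 6-gene sum of 389 CPM in the 45 cells was under the 1529 CPM of epithelial cells and above the 28.9 CPM of the CD4/CD8-selected cells under the limit. *Sulf2*, an enzyme that edits heparan sulfate, had 21 UMIs in 11 cells. *Gzmc*, granzyme C, had 160 UMIs, of which 139 lay in 1 cell, and its ratio of 65.8 became 9.16 without that cell. The lowest ratios in the 50 cells belonged to *Cd8b1*, *Gm8369*, *Gm26740*, *Gimap7*, *Hdgfl3*, *Frat2*, *Gm26532*, *Prdx3*, *Fam169b*, and *9930111J21Rik2*.

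**Figure D3:**
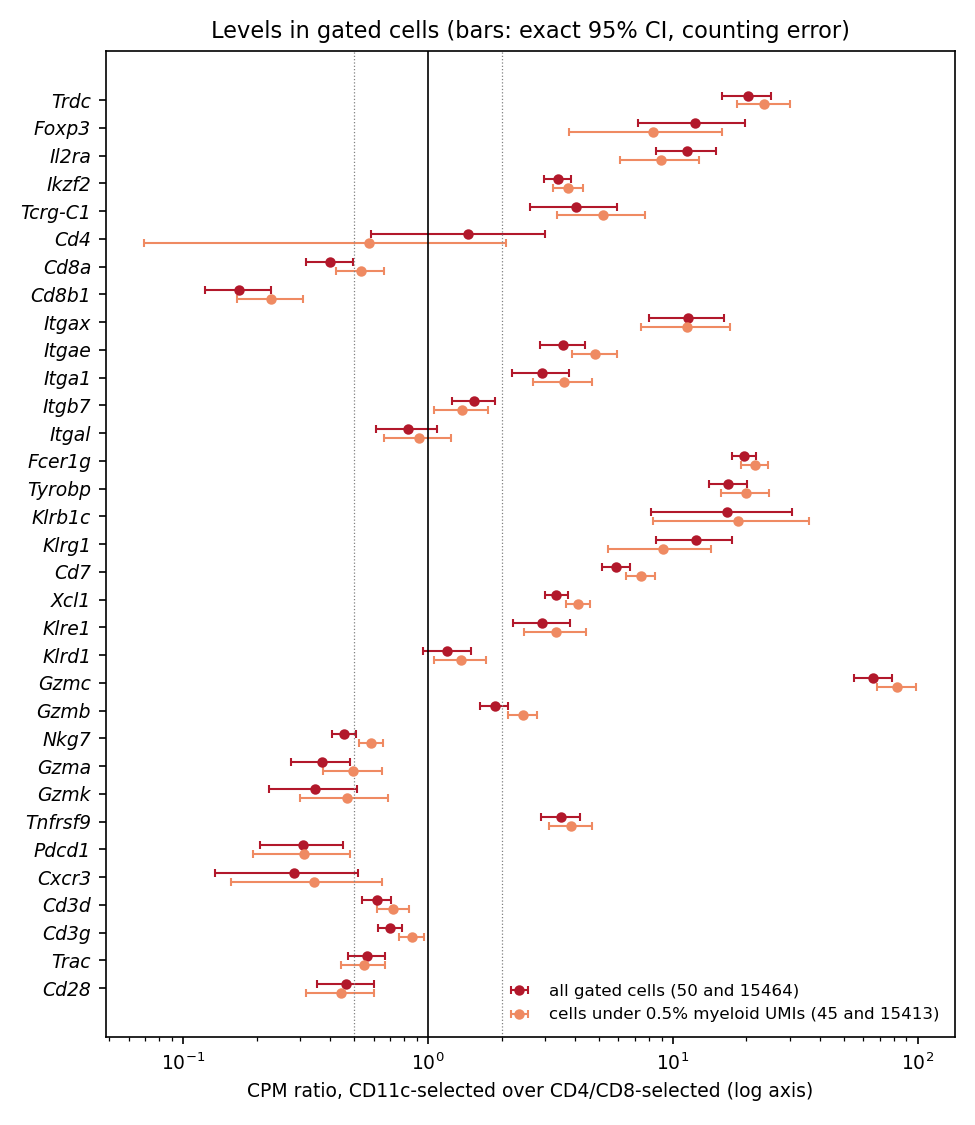
Ratio of CPM in gated CD11c-selected over gated CD4/CD8-selected cells on a logarithmic axis for genes named in the text, for all gated cells and for those under 0.5% myeloid UMIs, with exact 95% intervals of counting error. *Fcer1g*, *Trdc*, *Foxp3*, and *Itgax* lie above 10 in all gated cells, and *Cd8b1* and *Pdcd1* lie under 0.5.

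The killer lectin and innate-like genes formed the list with the largest count of members past 2-fold higher, with 6 of 12 higher and 0 lower (median log2 ratio 0.93), and 6 of 12 under the myeloid limit (median 1.12). Over all genes counted, 11.2% were higher and 1.75% lower (median 0.22), which stands beside this and each list below. *Fcer1g* (chr1:171229572-171234365, minus strand) was at 901 CPM against 46.0 CPM, a ratio of 19.6 (17.4–21.9), in 26 of 50 cells with 1 to 63 UMIs. *Tyrobp*, which encodes the adaptor DAP12, was at 16.8 (14.0–20.1) in 15 cells. *Cd7* (chr11:121036747-121039418, minus strand) was at 5.88 (5.14–6.69) in 21 cells, and *Xcl1* at 3.35 (3.00–3.73) in 27 cells. *Klre1* was at 2.93 (2.23–3.79). *Cd7* and *Klre1* were at 8.98 and 4.42 without run 1 and at 2.64 and 1.43 (0.847–2.26) without run 2. *Klrg1* was at 12.4 (8.56–17.4), but 32 of its 35 UMIs lay in the 5 *Foxp3* cells, and it was at 3.50 (1.28–7.66) without run 1. *Klrg1* was also under 20 CPM in the comparison and passed the minimum on the CD11c-selected cells alone. *Klrb1c*, which encodes the NK1.1 antigen, was at 16.7 (8.17–30.7) with 1 or 2 UMIs in each of 10 cells, and at 10.8 without run 3. *Klrd1*, the CD94 gene, was at 1.20 (0.953–1.49), within counting error, at 1.36 (1.05–1.72) under the myeloid limit, at 1.61 without run 1, and at 0.901 without run 2. Genes of the innate signaling adaptors were thus farther from the comparison than the CD94 gene.

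Of the leukocyte integrins, 3 of 8 were higher and 0 lower (median 0.55). Among the higher was *Itgax*, which was under 20 CPM in the comparison and passed the minimum on the CD11c-selected cells alone. *Itgae* (chr11:73090583-73147446, plus strand) was at 255 CPM against 71.4 CPM, a ratio of 3.57 (2.88–4.39), in 20 cells with up to 11 UMIs, and at 4.82 under the myeloid limit. It was at 5.44 without run 1 and at 1.86 without run 2. *Itga1* was at 2.92 (2.21–3.78), and at 1.69 (1.04–2.58) without run 2. *Itgb7*, the partner of *Itgae*, was at 1.55 (1.25–1.89), *Itgal*, the LFA-1 alpha chain, at 0.828 (0.616–1.09), and *Itgb2*, the partner of *Itgax*, at 1.10 (0.859–1.40). The beta chain that pairs with CD11c was therefore at a like level in both populations, while the alpha chain differed.

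Among tissue residency genes 2 of 6 were higher and 0 lower (median 0.71), and 1 of 6 was higher under the myeloid limit (median 0.74). *Rgs2*, a regulator of G protein signaling, was at 3.02 (2.68–3.39) and *Bhlhe40* at 2.32 (1.95–2.74), and *Bhlhe40* was at 1.61 under the myeloid limit. *Cxcr6* and *Cd69* were at 0.880 (0.700–1.09) and 0.975 (0.771–1.22). Of the circulating and naive genes 1 of 10 was higher and 2 lower (median −0.32), and 1 higher and 0 lower under the myeloid limit (median −0.48). The higher count was near the 11.2% of all genes. The higher member, *Ccr7*, a receptor that guides cells to lymph nodes, was at 3.74, but at 0.464 (0.222–0.853) under the myeloid limit. *Tcf7* was at 0.466 (0.266–0.757) and *Id3* at 0.376 (0.122–0.879), and with 1 UMI added neither was 2-fold lower under the limit. Without run 1 *Tcf7* was at 0.719.

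*Pdcd1*, which encodes the inhibitory receptor PD-1 (chr1:94038305-94052553, minus strand), was lower. It was detected in 12 of the 50 cells and in 49.0% of CD4/CD8-selected cells, at 77.6 CPM against 250 CPM, a ratio of 0.310 (0.206–0.449). Thinned to 1000 UMIs, 8.16% against 21.2% of cells had a UMI. Of the inhibitory receptors and exhaustion genes 2 of 9 were higher and 1 lower (median 0.07), and 1 of 8 was higher and 1 lower under the myeloid limit (median −0.01). The 2 higher genes, *Havcr2* and *Cd200*, were at 3.07 and 5.24 in all cells, and at 0.766 (0.0928–2.78) and 0 UMIs under the myeloid limit. *Ctla4* was at 1.11 (0.817–1.47), *Lag3* at 0.752 (0.388–1.32), and *Tox* at 0.861 (0.634–1.14), all within counting error in all cells. *Ctla4* was at 0.495 (0.263–0.846) without run 1, and *Lag3* at 1.24 without run 1 and at 0.200 (0.0243–0.725) without run 2.

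Costimulatory receptor genes were higher in 3 of 7 cases and lower in 0 (median 0.54), and higher in 2 of 7 under the myeloid limit (median 0.82). *Tnfrsf9*, the 4-1BB gene, was at 335 CPM against 95.8 CPM, a ratio of 3.50 (2.90–4.19), in 24 cells with up to 23 UMIs. *Tnfrsf4* was at 5.53 (4.65–6.53) in 7 cells, but at 0.705 (0.352–1.26) without run 1, which held 4 of the 5 *Foxp3* cells. *Tnfrsf18*, the GITR gene, was at 2.03 (1.69–2.42), and at 1.80 under the myeloid limit. *Icos* was at 0.864 (0.656–1.12).

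Cytotoxic granule genes were lower in 4 of 10 cases and higher in 1 (median −0.30), and lower in 1 and higher in 2 under the myeloid limit (median −0.04). Of all genes, 1.75% were lower and 11.2% higher. *Nkg7*, a granule membrane protein gene, was at 917 CPM against 2016 CPM, a ratio of 0.455 (0.407–0.507), and *Prf1*, the perforin gene, was at 0.402 (0.148–0.877). Under the myeloid limit they were at 0.587 and 0.544 (0.199–1.18), and *Nkg7* was at 0.283 without run 2. *Gzmk* was at 0.346 (0.224–0.511), and *Gzma* at 0.369 with 52 of its 54 UMIs in 1 cell. *Gzmk* was at 0.228 without run 1, and *Gzma* was at 0.607 without run 1 and had 0 UMIs without run 2. *Gzmb* was at 640 CPM against 342 CPM, a ratio of 1.87 (1.64–2.13), in 18 cells. One cell held 75 of its 231 UMIs, and the ratio was 1.34 without that cell, 2.95 without run 1, and 1.24 without run 2. The granzyme genes thus did not move as a block. Of the cytokine genes 1 of 6 was higher and 2 lower (median −0.16), and 1 higher and 1 lower under the myeloid limit (median −0.63). *Tgfb1* was at 2.36 (2.02–2.73) in 36 cells, *Ifng* at 0.403 (0.249–0.616), and *Tnf* at 0.374 (0.171–0.710). *Ccl5*, the most abundant of these, was at 4107 CPM against 7009 CPM.

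Of the remaining lists, T cell identity genes were 2-fold or more lower in 1 of 15 cases (*Cd28*, at 0.464) and higher in 0 (median −0.69), with *Cd5* at 0.996 (0.689–1.39) and at 0.531 (0.265–0.950) without run 1, *Thy1* at 0.864 (0.726–1.02), and *Trac* at 0.566 (0.473–0.671). Lineage genes were higher in 5 of 10 cases and lower in 2 (median 1.09), and higher in 4 of 9 and lower in 1 under the myeloid limit (median 0.66). In all cells these were *Trdc* at 20.2 (16.0–25.3), *Foxp3* at 12.3 (7.20–19.7), *Il2ra* at 11.4 (8.52–15.0), *Tcrg-C1* at 4.02 (2.62–5.91), and *Ikzf2* at 3.40 (2.99–3.85), with *Cd8a* at 0.399 (0.318–0.495) and *Cd8b1* at 0.170 (0.123–0.229). Of the higher genes, all but *Ikzf2* were under 20 CPM in the comparison and passed the minimum on the CD11c-selected cells alone. The minimum thus fixed their direction, and the count of higher lineage genes is only a description. Without run 1, which held 45 of the 54 *Il2ra* UMIs, *Il2ra* was at 3.13 (1.43–5.97) and *Foxp3* at 2.25 (0.271–8.19). *Foxp3* was at 8.32 under the myeloid limit, *Il2ra* was at 17.2 without run 2, and *Trdc* was at 12.8 without run 3. Of the interferon-induced genes 0 of 9 were higher and 2 lower (median −0.40), and 3 lower under the myeloid limit (median −0.70), with *Ly6a* at 0.389 and *Ifit3* at 0.423 (0.225–0.724), or 0.226 and 0.215 without run 1. Of the chemokine receptors 0 of 4 were higher and 1 lower (median 0.55), namely *Cxcr3* at 0.283 (0.136–0.520), and at 0.169 without run 3.

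Cell cycle genes were higher in 1 of 8 cases, near the 11.2% of all genes, and lower in 0 (median 0.69). That gene, *Mki67*, was at 3.33 with 60 of its 104 UMIs in the 2 barcodes that held *Ccl22*, at 1.81 (1.30–2.45) under the myeloid limit, where 0 of 8 were higher, and at 1.58 without run 1. Immediate early and heat shock genes were higher in 2 of 10 cases and lower in 0 (median 0.27). *Nr4a3* was at 2.19 (1.90–2.50) in 43 cells. *Hspa1b* was at 2.71 with 46 of its 93 UMIs in 1 cell, and at 1.39 without that cell.

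*Fcer1g* split the gated CD11c-selected cells into groups with different receptor genes. This division, and the genes shown in it, were chosen after the values were seen. Under the myeloid limit, 21 cells had an *Fcer1g* UMI and 24 did not, with median depths of 7363 and 4361.5 UMIs. *Cd7*, a surface protein of T cells and NK cells, was detected in 18 of the 21 and in 0 of the 24 cells, at 1404 CPM against 0, which is at least 51.6-fold higher against the limit of 3 UMIs over the group. *Xcl1* was detected in 19 of the 21 and in 5 of the 24, at 1882 CPM against 172 CPM. *Klre1*, *Klrd1*, *Gzmb*, and *Itgax* were 11.0, 7.27, 8.02, and 8.09 times as high in the cells with *Fcer1g*. All of these genes were thus concentrated in the same cells.

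**Figure D4:**
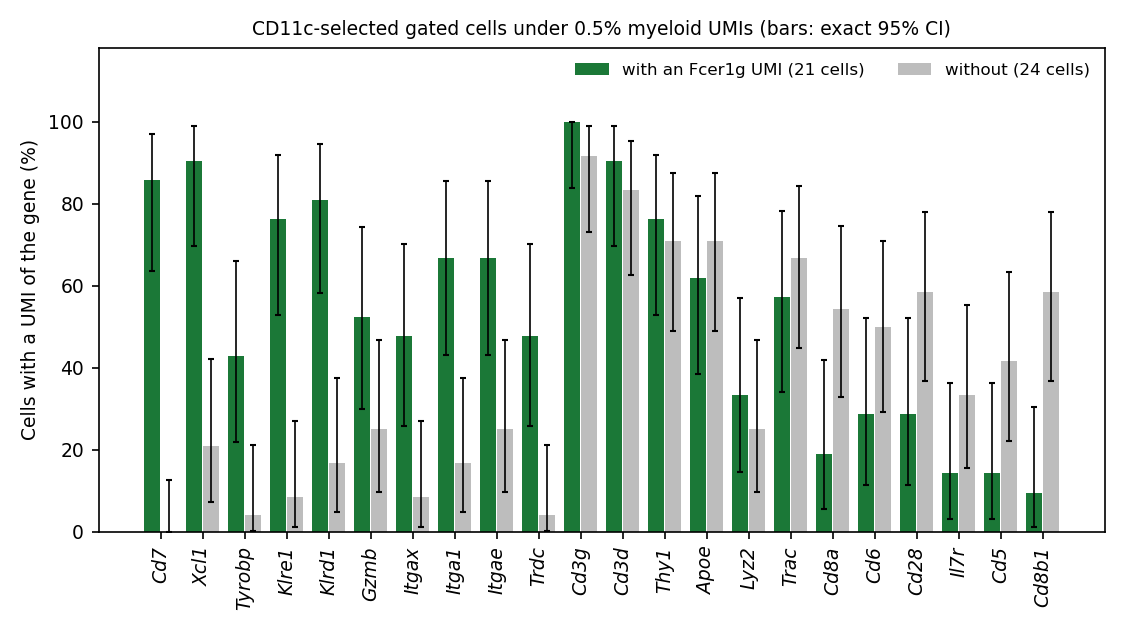
Percentage of cells with a UMI of each gene among the 21 gated CD11c-selected cells with and the 24 without an *Fcer1g* UMI, all under 0.5% myeloid UMIs, with exact 95% intervals (where the percentage is 0, the bar ends at the limit of 3 counts). *Cd7*, *Xcl1*, *Klrd1*, and *Klre1* are found mostly in the first group and *Cd8b1*, *Cd28*, and *Cd5* mostly in the second, at median depths of 7363 and 4361.5 UMIs.

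Genes of conventional T cells showed the opposite distribution. *Cd8b1* was at 31.9 CPM in cells with *Fcer1g* and at 344 CPM in cells without (0.0926, 0.0284–0.236), although the cells without it were shallower. *Cd5*, an inhibitor of T cell receptor signaling, was at 0.128 (0.0318–0.377), *Cd28*, the main costimulatory receptor of naive T cells, at 0.198 (0.0834–0.424), and *Il7r*, the interleukin-7 receptor, at 0.146 (0.0487–0.357) of the level in cells without *Fcer1g*. *Trac* was at 0.392 (0.250–0.606). The CD3 genes did not follow this pattern, with *Cd3d* at 1.23 (0.902–1.70), *Cd3g* at 1.74 (1.34–2.27), and *Thy1* at 0.955 (0.668–1.37). The same division of CD4/CD8-selected cells under the limit (725 with and 14688 without *Fcer1g*) gave differences in the same directions, with *Cd7* at 4.71, *Xcl1* at 4.01, *Tyrobp* at 20.4, *Cd28* at 0.561, *Cd5* at 0.638, *Il7r* at 0.350, and *Cd8b1* at 0.777. The division was therefore found in both matrices.

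**Figure D5:**
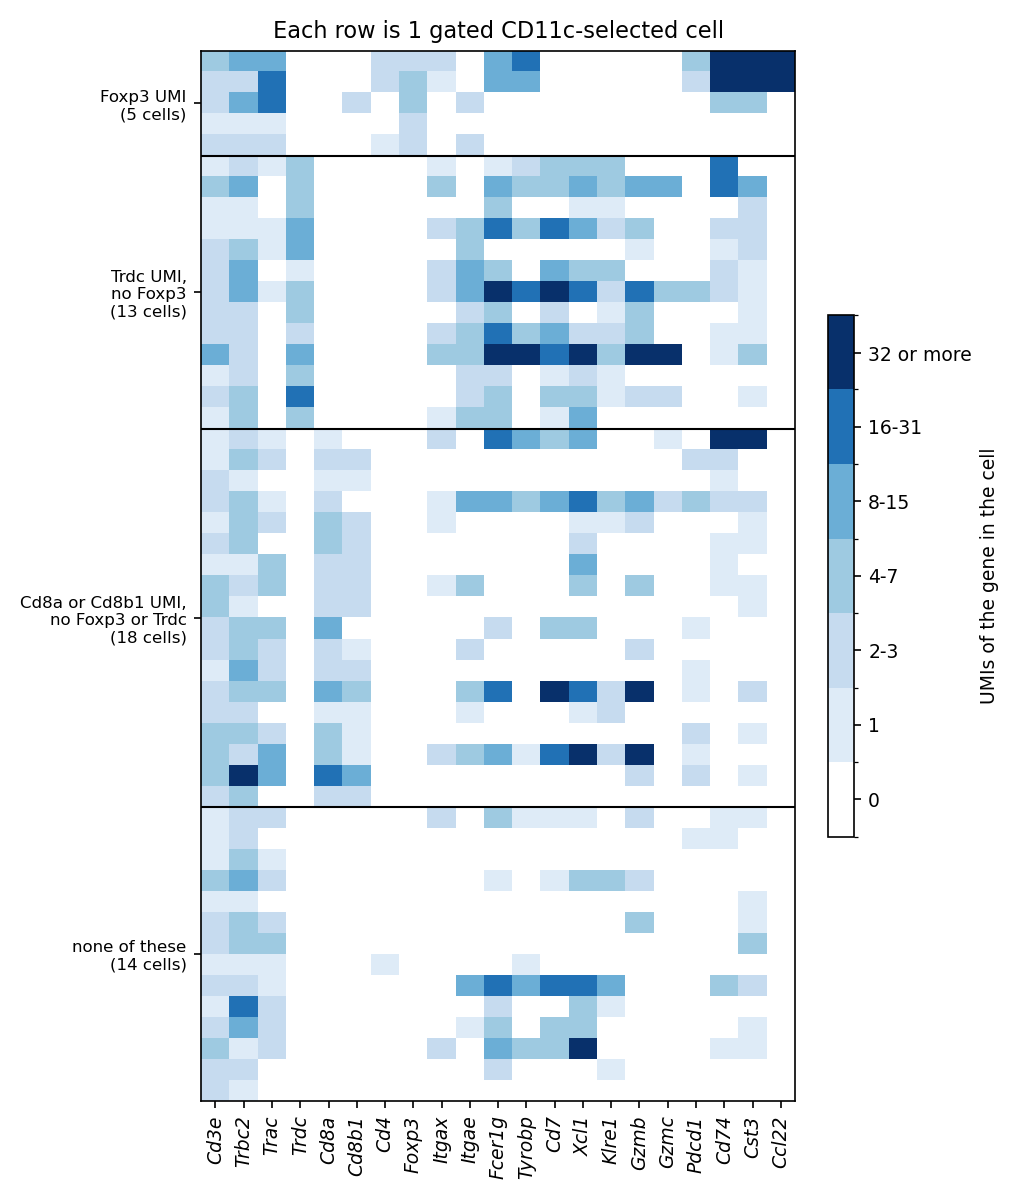
UMIs of 21 genes (columns) in each of the 50 gated CD11c-selected cells (rows), ordered by lineage category and shaded by class of UMI number. *Fcer1g*, *Cd7*, and *Itgax* are found together mainly in *Trdc* cells, and *Ccl22* is found in 2 of the 5 *Foxp3* cells.

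Free RNA in the cell suspension was not measured itself, and levels of macrophage genes in epithelial cells, which can hold free RNA and transcripts of their own, were set beside these values. *Apoe*, an abundant macrophage transcript, was at 191 CPM in the 45 cells under the myeloid limit, 308 CPM in epithelial cells, and 17548 CPM in macrophages. *Fcer1g*, also a macrophage gene, was at 962 CPM in the 45 cells and 24.1 CPM in epithelial cells. For each 100 *Apoe* UMIs the 45 cells had 504 *Fcer1g* UMIs, epithelial cells 7.83, and macrophages 13.6. *Apoe* differed little between cells with and without *Fcer1g* (ratio 0.732, 0.406–1.32). Dendritic cells were not among the populations compared, and the part of free RNA in the *Fcer1g* level was not tested. *Cd74* was at 116 CPM in the 45 cells against 505 CPM in epithelial cells, and *Lyz2*, at 59.9 CPM, was near the 54.1 CPM of epithelial cells.

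Cells with and without an *Itgax* UMI were compared within each matrix. Among gated CD11c-selected cells under the myeloid limit, 12 had an *Itgax* UMI and 33 did not. In the cells with *Itgax*, 717 of 5507 genes (13.0%) were 2-fold or more higher and 510 (9.26%) lower. Counting error in so few cells could add to both counts, and its size was not tested. The highest ratios belonged to *Gzma*, *Gzmc*, *Cited4*, *Irf8*, *Mitd1*, *Tyrobp*, *Irf7*, *Oasl1*, *Wrn*, and *Nsmce1*. *Tyrobp* was at 713 CPM with and 56.1 CPM without *Itgax*. The *Gzma* and *Gzmc* values each rested on 1 cell, with 52 and 139 UMIs. *Tnfrsf4*, *Maf*, *Il1rl1*, *Klrg1*, and *Il2ra* were among the 10 lowest. Depth moved with this split, with a median of 8129 UMIs in cells with and 4174 in cells without *Itgax* over all 50, and its part in the counts was not tested.

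In the CD4/CD8-selected matrix, 608 gated cells (3.93%) had an *Itgax* UMI, 503 of them a single UMI. There 29 of 5083 genes (0.571%) were 2-fold or more higher in cells with *Itgax* and 21 (0.413%) lower. The highest ratios belonged to *Siglech*, *Cox6a2*, and *Ccr9*, genes of plasmacytoid dendritic cells, and to *Mpeg1* and *H2-Ab1*. With the 11 of the 608 cells that were at or over the myeloid limit left out, 9 of 5048 genes (0.178%) were 2-fold or more higher and 14 (0.277%) lower. Under that limit *Ly6d*, *Tyrobp*, *Cd74*, *Irf8*, *Gzmm*, and *Fcer1g* were among the 10 highest, with *Fcer1g* at 87.6 CPM with and 42.1 CPM without *Itgax*. *Tyrobp* was thus among the 10 highest genes of *Itgax*-positive cells in both matrices. The limit counts myeloid genes, and its removal of barcodes with plasmacytoid dendritic cell transcripts was not tested. *Ly6d*, among the 10 highest beside *Siglech* and *Ccr9* before the limit, was the highest under it, at 64.2 CPM with and 8.3 CPM without *Itgax*. Whether the *Tyrobp* level in CD4/CD8-selected cells came from T cells or from such barcodes was therefore not tested.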

How the data were processed

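Single cells of PyMT tumors were measured in 6 CD11c-selected and 6 CD4/CD8-selected samples, pooled in 2 matrices. The authors deposited raw whole-number UMI counts, not normalized, and the submitters' processing notes name Cell Ranger 3.0.2 and the mm10 build. No filter on cells by the authors is given in the sources used here. Barcodes carried no sample name, so groups came from the matrix alone, each group was 1 sample, and no test or p-value was computed.

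Barcodes under 200 detected genes were dropped and the gate was applied to raw counts. Doublets were not removed, and 19 myeloid genes flagged cells at a limit of 0.5% of UMIs. UMIs were summed over cells and scaled to CPM, with exact Poisson intervals for levels, conditional binomial intervals for ratios, and Clopper-Pearson intervals for shares, all at 95%. A share of 0 was given the limit of 3 counts. A gene was past the fold when the CPM ratio, with 1 UMI added to each sum, was at least 2 or at most 0.5, among genes with a mean of at least 20 CPM. Shares were repeated after each cell was thinned to 1000 UMIs.

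The genes named are those of 14 gene lists and 15 marker lists, the 10 highest and lowest ratios between matrices, and the 10 highest between cells with and without *Itgax*. Members, lists, and gates were chosen with earlier results of these data known. The lineage categories, the *Fcer1g* division, and the gamma chain segments were added after the values were seen. Symbols were matched to GENCODE M21 on GRCm38 (30431 of 31053, 98.0%) for positions. The alternatives tried changed the gate, the myeloid limit, the depth, the low-level minimum, the added UMIs, and the runs included. The scripts were tested on simulated data and used Python 3.11.15, numpy 2.4.6, scipy 1.17.1, pandas 2.3.3, and matplotlib 3.10.9.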

Additional observations from a re-analysis of the deposited data

How the results depend on the processing

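No paired analysis was possible because cells could not be assigned to samples and no test was run. Of 122 other settings, 76 left a value within its counting interval or a count within 1.5 times, 45 moved it, and 1 reversed it, and the causes were not tested. A gate with at least 2 *Cd3e* UMIs held 0.284% of cells and gave 2.16 for *Gzmb*. Under 0.5% myeloid UMIs the ratios were 4.82 for *Itgae*, 0.531 for *Cd8a*, 0.574 for *Cd4*, and 2.44 for *Gzmb*. In *Cd8a*-positive *Cd4*-negative cells, by construction without most *Foxp3* cells, *Foxp3* reversed to 0, *Pdcd1* was at 0.515, *Gzmb* at 2.41, and *Klrd1* at 0.877, with 1155 genes higher and 148 lower. Without cells above the 95th percentile of UMIs, *Itgae* was at 4.43, *Cd8a* at 0.511, and *Cd4* at 0.513. In *Trdc* cells alone, a set chosen after seeing the data, *Itgax* was at 23.4, *Cd8a* and *Cd4* at 0, *Pdcd1* at 0.142, *Gzmb* at 5.94, and *Klrd1* at 2.67. Without *Trdc* cells, *Itgax* was at 7.88, *Itgae* at 2.26, *Cd8a* at 0.570, *Gzmb* at 1.23, and *Klrd1* at 0.770. As a mean over cells, *Cd8a* was at 0.532 and *Gzmb* at 1.39. Thinned to 1000 UMIs, 1820 genes were higher and 156 lower, with *Itgax* at 29.1, *Itgae* at 5.74, *Cd8a* at 0.515, *Foxp3* at 4.86, and *Gzmb* at 1.49. With runs weighted equally, 196 genes were lower, *Foxp3* was at 5.73, and *Pdcd1* at 0.669. A minimum of 50 CPM gave 232 genes higher and 38 lower, a minimum of 5 CPM gave 1552 and 235, and 5 UMIs added to each sum gave 1016 and 26. Without the cell with most UMIs of the gene, *Cd8a* was at 0.314 and *Gzmb* at 1.34. Leaving out each run in turn gave shares of gated cells of 0.294 to 0.531%, 576 to 795 genes higher and 87 to 152 lower, *Itgax* at 9.50 to 13.4, *Itgae* at 1.86 to 5.44, *Cd8a* at 0.307 to 0.459, *Cd4* at 0.684 to 2.57, *Foxp3* at 2.25 to 17.5, *Pdcd1* at 0.251 to 0.347, *Gzmb* at 1.24 to 2.95, and *Klrd1* at 0.901 to 1.61. Only runs 1, 2, and 3 of the CD11c-selected cells and run 2 for the share of gated cells moved these values. With 50 cells, a gene under 7.22 UMIs in sum could not reach 20 CPM in them, and differences between genotypes were not analysed here.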
